A study of Mus musculus with 2 samples.

Results

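The transcripts of the MHC class II antigen-presentation genes and of Ciita, the gene of their main transcriptional co-activator, were followed across marker-defined leukocyte classes of the pressure-loaded mouse heart. The 10 genes were chosen by symbol as one pathway, with earlier results of these data known. All 10 were found among the 32286 features of the count matrices. The study compared leukocytes of left ventricles from mice that received Control marrow (Control BMT) or marrow with loss of the Y chromosome (LOY BMT), all after TAC, a surgical narrowing of the aorta. Both groups shared the transplant and the surgery, and only viable CD45+RFP+ cells, those derived from the transplanted marrow, were sorted, so macrophages of the host itself were outside the gate. Each group was 1 library made from 3 mice pooled after sorting. The labels give no strain, age, time after surgery or account of how the LOY marrow was made. With 1 library per group, no p-value is given, and every interval below is a 95% interval of counting error that holds nothing of the spread between mice. Intervals of UMI levels and of their ratios count each UMI as independent and hold nothing of the spread between cells either.

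On mm10, 8 of the 10 genes lie in the MHC on chromosome 17, from H2-Oa at 34092340-34095234 to H2-Eb1 at 34305867-34316674. Ciita lies on chromosome 16 at 10480059-10528418 and Cd74 on chromosome 18 at 60803848-60812652, and all 10 are annotated as protein-coding genes. The Control library gave 6909 cells with a median of 5214 UMIs (molecular barcodes that tag single captured transcripts), and the LOY library 5177 cells with a median of 3006. The median mitochondrial share was 3.25% in Control and 1.94% in LOY cells, and 29 barcodes occurred in both libraries. At least 1 UMI of Kdm5d, Uty, Ddx3y or Eif2s3y, genes of the Y chromosome, was found in 46.6% (45.4 to 47.8) of Control cells and in 3.84% (3.34 to 4.40) of LOY cells, so the libraries matched their labels and the LOY library still held some cells with Y transcripts.

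MHC class II molecules are dimers of an alpha and a beta chain that display peptides from the endocytic pathway to CD4 T cells. B cells, dendritic cells and activated macrophages are the usual sources. In mice H2-Aa and H2-Ab1 encode the 2 chains of I-A and H2-Eb1 the beta chain of I-E. Cd74, the invariant chain, guards the new dimer until its last piece, CLIP, is exchanged for peptide by H2-DM (H2-DMa with H2-DMb1 or H2-DMb2), which H2-DO (H2-Oa with H2-Ob) restrains. Transcription of these genes depends on Ciita, which does not bind DNA itself but is recruited by factors (the RFX complex, CREB and NF-Y) seated on the X and Y boxes of the promoters. In macrophages Ciita is known to be induced by interferon-gamma.

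The promoter sequences show what the genes share. RefSeq promoters (GRCm38.p6, which is mm10) were matched for 7 of the 10 genes with 8 start sites, and the 250 bases before each start were searched on both strands for an X box core, AACNNATGA, and a Y box core, GATTGG, letters that were written down after these sequences had been read and that do not overlap each other. Below are the 66 bases from 50 before to 10 after the Y box core, 5′ to 3′ on the gene's strand, with both cores in capitals. They lie at chr17:34305757-34305822 (H2-Eb1, plus strand), chr17:34153079-34153144 (H2-DMb1, plus), chr17:34145108-34145173 (H2-DMb2, plus), chr17:34238797-34238862 (H2-Ob, plus), chr17:34287857-34287922 (H2-Aa, minus) and chr17:34092285-34092350 (H2-Oa, plus).
H2-Eb1: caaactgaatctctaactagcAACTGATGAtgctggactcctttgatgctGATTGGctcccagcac
H2-DMb1: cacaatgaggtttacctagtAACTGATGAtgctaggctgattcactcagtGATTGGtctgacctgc
H2-DMb2: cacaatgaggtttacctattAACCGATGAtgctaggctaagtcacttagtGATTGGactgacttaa
H2-Ob: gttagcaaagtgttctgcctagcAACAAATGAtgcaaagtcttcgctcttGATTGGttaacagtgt
H2-Aa: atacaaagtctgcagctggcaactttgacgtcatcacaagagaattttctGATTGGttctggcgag
H2-Oa: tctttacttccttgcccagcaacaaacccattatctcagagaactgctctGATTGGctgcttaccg

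In H2-Eb1, H2-DMb1, H2-DMb2 and H2-Ob the X core stood upstream of the Y core with 20, 21, 21 and 18 bases between them. H2-Aa and H2-Oa held the Y core without those X letters, and for H2-DMa a Y core was found 199 bases before 1 of its 2 starts. Of all 32851 promoters in the table, 2.49% held the X core, 14.6% the Y core and 0.402% both. X before Y on the gene's strand, with starts at most 50 bases apart, was found in 11 promoters of the table (0.0335%), 4 of them the genes above. The windows of H2-DMb1 and H2-DMb2 were 86.4% identical, yet the levels of these neighbours differed widely between classes, as given below. Because the letters were written down after these promoters had been read, finding them among the 11 was largely set in advance. A match of letters is a description and not evidence of binding in these cells.

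Class II transcripts were far lower in LOY than in Control macrophage-like cells, which were named from markers that held no class II gene, in clusters made without the class II genes. There were 3314 of them in Control and 3138 in LOY, in clusters that held 9 or 10 of the 10 macrophage markers. Clusters led by Cd209f, Ly6c2, Hist1h1b and Myl7 also held 9 or 10 of these markers. They failed the naming rule, as markers of other types were among their leading genes, and are left out of this class. The ratio with them included is given below. Levels are UMIs per 1000000 UMIs of the class (CPM). UMIs count each transcript once near its 3′ end and are not scaled by length, so ratios between genes below are ratios of transcript counts. H2-Aa stood at 10646 CPM for Control and 1471 CPM for LOY cells, 13.8% (13.6 to 14.0) of the Control level. H2-Ab1 stood at 9562 and 1695 CPM (17.7%), and H2-Eb1 at 11275 and 1505 CPM (13.3%). Summed, these 3 chains made up 31482 CPM in Control and 4671 CPM in LOY cells, a ratio of 14.8% (14.7 to 15.0) or -2.75 on the log2 scale with 10 CPM added to both sides.

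The genes of peptide loading differed less than the chains. Cd74 was at 24073 CPM in Control and 6419 CPM in LOY cells, 26.7% of Control. H2-DMa was at 679 and 231 CPM (34.1%) and H2-DMb1 at 634 and 198 CPM (31.2%). H2-DMb2 and the H2-DO genes were near absent from macrophage-like cells of both libraries: H2-DMb2 at 5.88 and 4.58 CPM, H2-Oa at 1.33 and 1.28 CPM, and H2-Ob at 10.6 and 3.20 CPM. The intervals of the ratio held 1 for H2-DMb2 (54.9 to 109%) and H2-Oa (46.9 to 188%), and for H2-Ob it ran from 20.5 to 43.2%, from 231 and 35 UMIs. Ciita itself was at 116 CPM in Control (2524 UMIs) and 27.9 CPM in LOY cells (305 UMIs), 24.1% (21.3 to 27.1) of Control.

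Measured genes, those with at least 10 CPM in either library, numbered 7679 in macrophage-like cells, of which 7.94% were past 1.5-fold lower and 6.52% past 1.5-fold higher in the LOY library. Of the 10 class II genes 8 were measured, and 8 of these were past 1.5-fold lower (on the log2 scale above). One of them, H2-Ob, reached 10 CPM only in the Control library, so the filter favoured a lower ratio for it. H2-Ob was past 1.5-fold lower under 12 of 18 alternative settings. Their median log2 ratio was -1.82, against 0.00 over all measured genes. Ordered from the lowest ratio, H2-Eb1 ranked 3, H2-Aa 4, H2-Ab1 8, Cd74 25, Ciita 29, H2-DMb1 38, H2-DMa 50 and H2-Ob 486. The chains, Cd74, Ciita and H2-DM thus fell among the genes with the lowest ratios of the class, and H2-Ob, close to the minimum level, did not. As the set was chosen with earlier results of these data known, these ranks and counts are a description only.

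**Figure D1:**
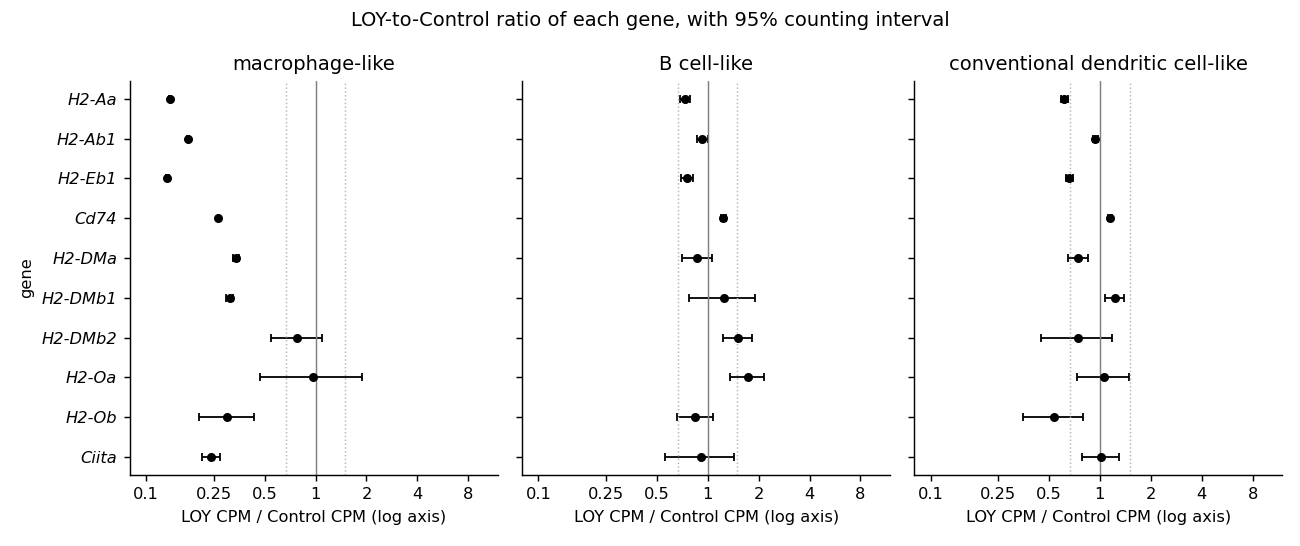
Ratio of LOY CPM to Control CPM (log axis) for each gene in macrophage-like, B cell-like and conventional dendritic cell-like cells, with 95% counting intervals, a line at 1 and dotted lines at 1.5-fold. In macrophage-like cells 8 genes lie left of the lower dotted line, from H2-Eb1 at 13.3% of Control to H2-DMa at 34.1%, while most genes of the other 2 classes lie near 1.

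B cell-like cells, 816 in Control and 236 in LOY, had high class II levels in both libraries. The chains summed to 13172 CPM in Control and 10539.6 CPM in LOY cells, 80.0% (76.6 to 83.5). The log2 ratio of -0.32 depended on the scale. It was -0.19 without mitochondrial and ribosomal-protein genes in the total. Less the median log2 ratio of measured genes it was -0.16. It ran from -0.54 to -0.16 over 14 alternatives. H2-Ab1 stood at 92.8%, H2-Aa at 73.5% and H2-Eb1 at 75.8% of Control, and Ciita at 111 and 102 CPM with an interval of 56.3 to 143%. Cd74 was higher in the LOY library, at 15252 and 18847 CPM (124%, 120 to 128). Past 1.5-fold, 0 of 10 measured class II genes were lower, where 23.7% of all measured genes were, and 1 was higher (H2-Oa), where 8.63% of all were. The median log2 ratio was -0.11 for the class II genes and -0.16 for all measured genes. The LOY B cell-like cells held 216326 UMIs, against 10928610 in LOY macrophage-like cells. Ratios of low genes thus rest on few UMIs here, and the shares of all genes past 1.5-fold hold more counting error.

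Conventional dendritic cell-like (cDC-like) cells, led by Xcr1, numbered 85 in Control and 63 in LOY. Their chains summed to 29197 CPM and 21783 CPM, 74.6% (72.7 to 76.5). Ciita was at 254 CPM in Control and 259 CPM in LOY cells (102%, 78.8 to 130), the highest Ciita level of the named classes in both libraries. Cd74 was at 115% and H2-DMb1 at 122% of Control, whereas H2-DMa was at 74.4%. Past 1.5-fold lower were 3 of 10 measured class II genes, H2-Aa, H2-Eb1 and H2-Ob, against 20.7% of all measured genes. The median log2 ratio was -0.23 for the class II genes and -0.11 for all measured genes. The LOY cells of this class held 332561 UMIs, so the share of all genes holds more counting error than in macrophage-like cells.

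A cluster led by Cd209a stayed unnamed: macrophage markers were the most numerous in it, but Cd209a, a dendritic cell marker, led it, followed by Ccl17. It held 89 Control and 131 LOY cells. Its chains summed to 31308 and 23221 CPM (74.2%), and Ciita was at 181 CPM in Control and 269 CPM in LOY cells (149%, 115 to 192). H2-DMb1 was likewise higher in the LOY cells of this cluster, at 607 and 953 CPM (157%, 137 to 180).

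H2-DMb2 and the H2-DO genes set B cell-like and dendritic cells apart from macrophage-like cells in both libraries. H2-DMb2 was at 378 CPM in Control and 569 CPM in LOY B cell-like cells, and H2-DMb1 there at only 89.1 and 111 CPM. The B cell-like ratio of H2-DMb2 to H2-DMb1 was 4.24 in Control and 5.12 in LOY, and no other class or cluster with at least 50 cells and a count of H2-DMb1 had a ratio above 1. In macrophage-like cells that ratio was 0.00928 and 0.0232. No run of 91 bases in the last 500 bases of the annotated transcripts was shared between any 2 of the 10 genes, so the 3′ ends of H2-DMb1 and H2-DMb2 are distinct at that length. H2-Oa was at 241 and 416 CPM and H2-Ob at 411 and 347 CPM in B cell-like cells, the Control and LOY values in that order. H2-Oa in cDC-like cells was at 128 and 135 CPM, and H2-Ob at 168 and 90.2 CPM. H2-Eb2, a related beta-chain gene, followed the B cell-like class as well, at 84.3 and 78.6 CPM against 0.735 and 0.183 CPM in macrophage-like cells.

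**Figure D2:**
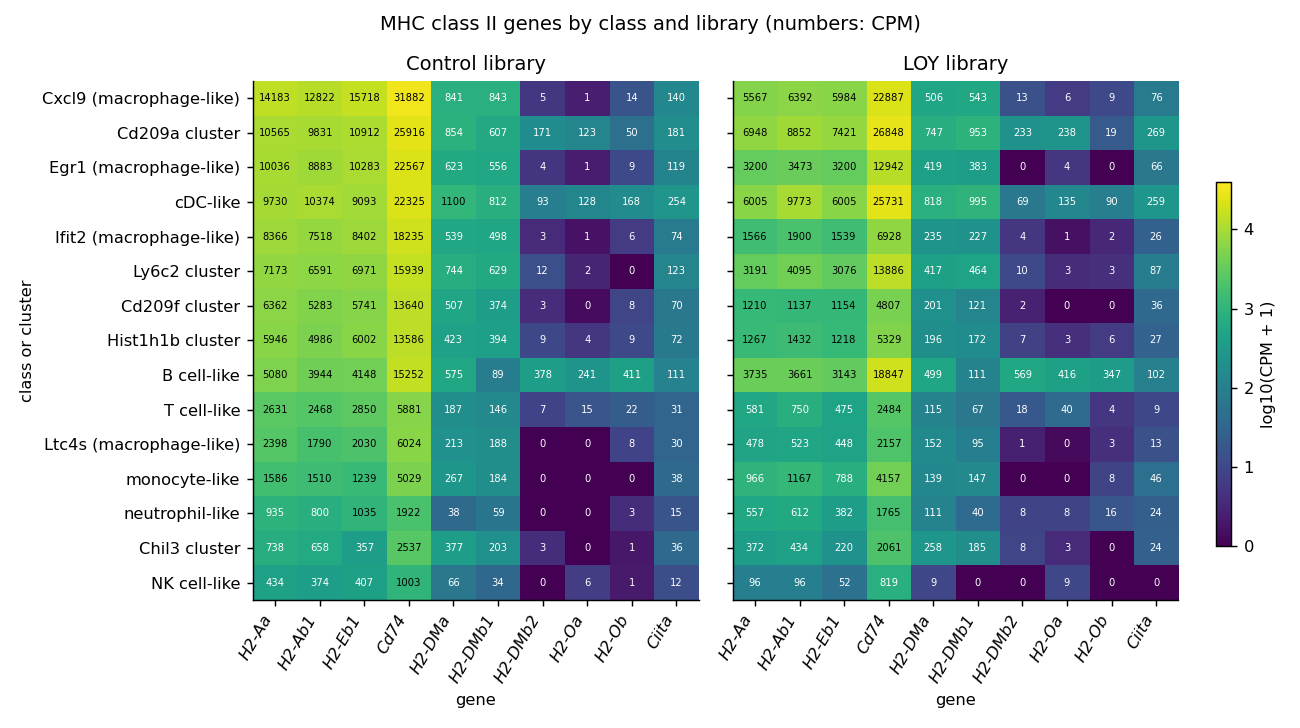
CPM of the 10 genes (columns) in each class or cluster with at least 50 cells in both libraries (rows, ordered by the summed chains in Control), for the Control and LOY libraries, coloured by log10(CPM + 1) with the CPM printed. H2-DMb2, H2-Oa and H2-Ob stand out in the B cell-like row, at 378, 241 and 411 CPM in Control, and the chain columns of the macrophage-like clusters hold lower values in the LOY panel.

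Other named classes held far less class II. The chains in monocyte-like cells, led by Ace, were at 4335 CPM in Control and 2921 CPM in LOY cells (67.4%). Neutrophil-like cells had 2770 and 1551 CPM (56.0%), T cell-like cells 7949 and 1806 CPM (22.7%), and NK cell-like cells 1215 and 244 CPM (20.1%, 13.3 to 29.2). Mouse T, NK and neutrophil cells are not known for class II expression, and macrophage transcripts were found in them too. C1qa, C1qb and C1qc together were at 3438 CPM in Control and 1553 CPM in LOY T cell-like cells, and at 424 and 1420 CPM in NK cell-like cells. The part of free RNA or attached macrophages in these values was not tested. The size of the NK cell-like difference, which rests on 28 chain UMIs in LOY cells, depended on the processing. Its log2 ratio ran from -4.23 to -0.22 over 9 alternatives, against -2.27. The value of -0.22 came with doublets kept and all cells clustered anew. Doublet removal was unequal, at 1.15% of Control and 4.38% of LOY barcodes, and its part in the change was not tested apart from the clustering. With doublets kept the T cell-like log2 ratio was -1.51 in place of -2.13, and the neutrophil-like one -1.63 in place of -0.83.

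Macrophage-like cells were made up of 7 clusters, called here by their leading gene, and their mix differed between the libraries. The cluster led by Egr1 held 1205 Control and 64 LOY cells, the one led by Gpnmb 36 Control and 1590 LOY cells, Cxcl9 1337 and 234, Ltc4s 113 and 725, and Ifit2 421 and 466. The 2 smaller ones, Retnla and Cxcl13, held 112 and 90 Control and 23 and 36 LOY cells. In 4 of 4 of these clusters with at least 50 cells in each library the summed chains were past 1.5-fold lower in LOY cells. The Cxcl9 cluster had the highest Control level, at 42723 CPM, and stood at 17943 CPM in LOY (42.0%). A cluster's name is not a claim on each of its cells: only 84 Control macrophage-like cells had a Cxcl9 UMI after thinning each cell to 1000 UMIs, with 34619 CPM of chains against 35164 CPM in cells without one. The Egr1 cluster was at 29202 and 9874 CPM (33.8%), the Ifit2 cluster at 24285 and 5004 CPM (20.6%), and the Ltc4s cluster at 6218 and 1449 CPM (23.3%).

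The order of the 4 clusters was the same in both libraries, Cxcl9, Egr1, Ifit2 and then Ltc4s. Ciita in the same order was at 140, 119, 73.8 and 30.1 CPM in Control and at 76.0, 66.1, 26.0 and 13.1 CPM in LOY cells, 35.3 to 55.6% of Control. The Gpnmb cluster, almost all from the LOY library, had 4690 CPM of chains there, against 21349 CPM in the 36 Control cells that joined them.

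Because the mix and the levels within clusters both differed, the summed ratio depended on the weighting. With equal weight for the 4 clusters the chains stood at 25607 CPM in Control and 8567 CPM in LOY cells (33.5%). With the Control library's shares of the 7 clusters in both libraries the LOY level was 11781 CPM (37.4% of Control), and with the LOY shares the Control level was 18383 CPM (25.4%). These weightings, chosen after the values were seen, rest in part on the 64 LOY cells of the Egr1 cluster and the 36 Control cells of the Gpnmb cluster.

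Clusters that carried macrophage or monocyte markers but failed the naming rule had the same direction in their chains. The cluster led by Cd209f, which also had Lyve1 and Folr2 among its genes, was at 17386 CPM in 1290 Control cells and 3501 CPM in 168 LOY cells (20.1%). Cycling cells, led by Hist1h1b, were at 16934 and 3917 CPM (23.1%), cells led by the monocyte gene Ly6c2 at 20735 and 10361 CPM, and cells led by Chil3 at 1753 and 1026 CPM (58.6%). All clusters with 9 or more of the 10 macrophage markers, named or not, held 4860 Control and 4273 LOY cells. Their chains stood at 26833 and 5169 CPM (19.3%), a higher ratio than in the macrophage-like class alone.

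**Figure D3:**
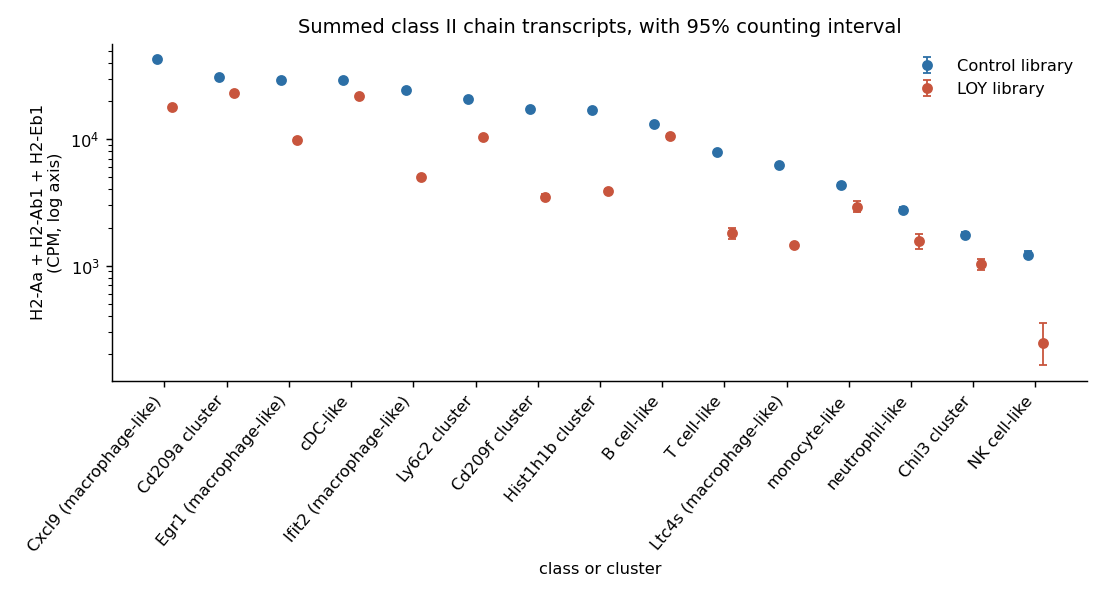
Summed CPM of H2-Aa, H2-Ab1 and H2-Eb1 (log axis) in each class or cluster with at least 50 cells in both libraries, Control in blue and LOY in red, with 95% counting intervals. The LOY point lies below the Control point in all 15, close to it in cDC-like (74.6%) and B cell-like (80.0%) cells and the Cd209a cluster (74.2%) and far below it in the Ifit2 (20.6%) and Cd209f (20.1%) clusters.

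In the Control library the chains were highest in the Cxcl9 cluster, at 42723 CPM, and lowest in NK cell-like cells, at 1215 CPM, over 17 classes and clusters (6 classes and 11 clusters). In the LOY library the Cd209a cluster, at 23221 CPM, and the cDC-like cells, at 21783 CPM, came first of 16, before the Cxcl9 cluster at 17943 CPM. Neighbours in these orders whose intervals overlapped were Egr1 and cDC-like, and Cxcl13 and B cell-like in Control. In LOY they were B cell-like, Ly6c2 and Egr1 in a row, and T cell-like, neutrophil-like and Ltc4s in a row.

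Per cell, the class II chains divided the macrophage-like cells of the LOY library. Each cell was thinned to 1000 UMIs, which left out 23 Control and 68 LOY cells with fewer. The chains had a median of 36 UMIs per 1000 in Control cells (quartiles 20 and 50) and of 0 in LOY cells (quartiles 0 and 7). At least 1 chain UMI was found in 94.3% (93.5 to 95.1) of Control and 46.4% (44.6 to 48.2) of LOY macrophage-like cells, a difference of -47.9 percentage points (-49.9 to -46.0). Without thinning, the shares were 98.3% and 59.3%. As a background, 23.8% of 193 Control and 9.76% of 41 LOY NK cell-like cells, with median depths of 3935 and 1732 UMIs against 5589.5 and 3068.5 in macrophage-like cells, had such a UMI. At least 5 chain UMIs were found in 88.7% of Control and 28.7% of LOY macrophage-like cells. In NK cell-like cells these shares were 2.59% and 0%, where 0 of 41 allows a share of up to 7.32%, taken as 3 counts of 41. T cell-like cells had shares of 16.0% of 275 Control and 6.17% of 81 LOY cells. Neutrophil-like cells had 3.90% of 282 Control and 18.5% of 27 LOY cells, the latter being 5 cells. At least 1 chain UMI was found in 29.1% and 9.88% of T cell-like and 33.3% and 29.6% of neutrophil-like cells. Cells of these classes thus reached 5 chain UMIs too.

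LOY macrophage-like cells that did reach 5 chain UMIs had a median of 17, against 39 in the Control cells that did. Both the share of cells with at least 5 chain UMIs and the level among them were thus lower in the LOY library. In B cell-like and cDC-like cells 100% had a chain UMI in both libraries, with medians of 13 and 11 UMIs per 1000 in Control and LOY B cell-like cells and of 27 and 22.5 in cDC-like cells. Only 62 of the 236 LOY B cell-like cells were deep enough for this count.

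**Figure D4:**
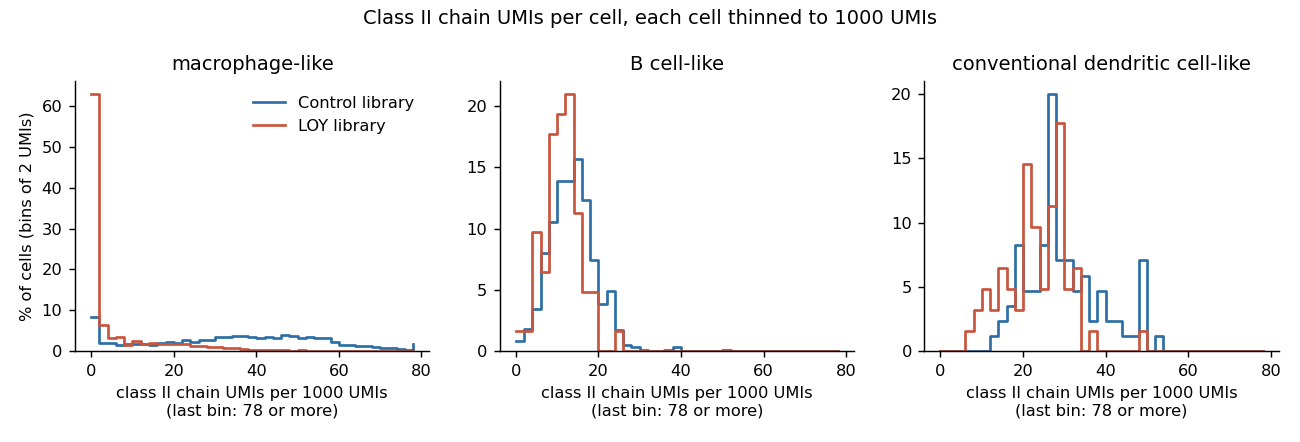
Percent of cells (vertical axis) by class II chain UMIs per 1000 UMIs (horizontal axis, bins of 2, the last bin holding 78 or more) in macrophage-like, B cell-like and cDC-like cells, Control in blue and LOY in red. LOY macrophage-like cells pile up at the lowest bin, with a median of 0 against 36 in Control, while the 2 curves overlap in the other classes.

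Other genes of the set were read against the chains within macrophage-like cells. Among cells with 0 to 4 chain UMIs, 371 in Control and 2190 in LOY, Ciita was at 12.9 and 5.90 CPM. From 10 to 19 chain UMIs Ciita was at 80.6 CPM in Control and 88.8 CPM in LOY cells, and from 20 to 39 at 126 and 136 CPM, with overlapping intervals at both steps. At 40 or more, 1458 Control and 48 LOY cells, it was at 168 and 125 CPM, where the LOY interval (68.4 to 210) rests on 14 UMIs. At each step above 4 chain UMIs the Ciita intervals of the 2 libraries overlapped, and below it they did not. H2-DMa was at 694 and 676 CPM and H2-DMb1 at 645 and 781 CPM in cells with 20 to 39 chain UMIs. Cd74 was higher in LOY cells at each step above 4, for instance 24760 CPM in Control and 32213 CPM in LOY cells from 20 to 39.

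**Figure D5:**
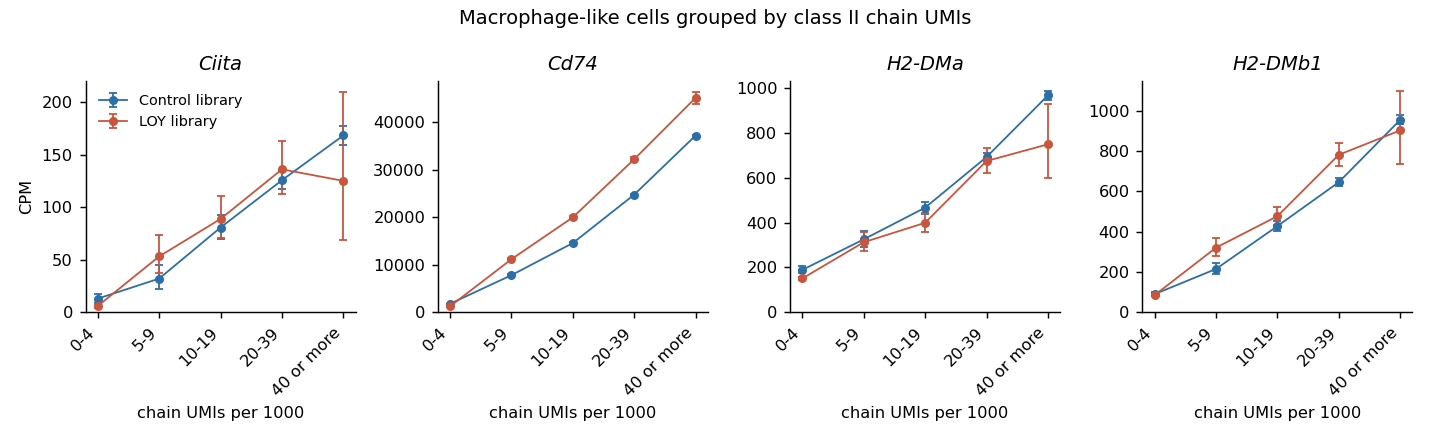
CPM of Ciita, Cd74, H2-DMa and H2-DMb1 (vertical axes) in macrophage-like cells grouped by chain UMIs per 1000 (horizontal axis), Control in blue and LOY in red, with 95% counting intervals. All 4 genes are higher in groups with more chain UMIs up to 20 to 39, where Ciita is at 126 and 136 CPM, and the LOY curve of Cd74 lies above that of Control from 5 UMIs on.

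The balance between class II transcripts was compared in the 6 other classes and 9 clusters with at least 50 cells in both libraries. The ratio of Cd74 to the summed chains was higher in the LOY library in 15 of 15, for instance 1.16 in Control and 1.79 in LOY B cell-like cells. Over macrophage-like cells as a whole, of which 4 clusters are among the 15, it was 0.765 and 1.37. The ratio of H2-Ab1 to H2-Aa was higher in 15 of 15 too, at 0.898 and 1.15 in macrophage-like, 0.776 and 0.980 in B cell-like and 1.07 and 1.63 in cDC-like cells. For H2-Eb1 to H2-Aa it was higher in 7 of 15. These 2 ratios moved with the library in every class, and with 1 library per group, the library, the background of the mice, for which the labels give no strain, and the marrow genotype cannot be told apart. The class II ratios between the libraries rest on the same contrast. The chain ratios near 74 to 80% of Control in B cell-like and cDC-like cells stand beside that shift.

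Depth moved with the class II level. In macrophage-like cells of 2000 to 4000 UMIs the chains were at 44794 CPM in 615 Control and 5935 CPM in 1752 LOY cells (13.3%). In cells of 4000 to 8000 UMIs they were at 36087 and 2533 CPM (7.02%), and from 1000 to 2000 UMIs at 33624 and 10483 CPM (31.2%), the latter on 58 Control cells. The LOY level was lower at each deeper step, from 12784 CPM below 1000 UMIs to 1972 CPM at 8000 or more, and the LOY cells were below the Control cells at each step.

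Macrophage-like cells with and without a UMI of single state markers, again thinned, showed where class II was low within a library. Cells with Folr2 (a marker of resident-type macrophages) had 18871 CPM of chains in Control and 1678 CPM in LOY cells, against 39296 and 7012 CPM in cells without it. Lyve1, another such marker, split the cells likewise, at 13098 and 1646 CPM with and 36931 and 6243 CPM without. Ccr2, the receptor of recruited monocytes, marked higher levels, at 41032 and 9595 CPM with and 32956 and 5089 CPM without. Trem2, a lipid receptor, was found in 33.7% of Control and 63.8% of LOY cells. The cells with Trem2 had 32038 CPM of chains in Control and 4214 CPM in LOY, against 36731 and 8675 CPM in cells without it. The cells with Spp1 had 27683 and 2998 CPM, while Isg15, an interferon-induced gene, hardly split the LOY cells (5776 CPM with and 5847 CPM without). Ly6c2, a monocyte gene, split the libraries in opposite directions: 22389 CPM with and 35220 CPM without it in Control (18 cells with it), and 9244 and 5672 CPM in LOY (135 cells with it). The LOY level was below Control with and without each of the 13 markers tried, from 6.40% (Timd4, 11 Control and 8 LOY cells) to 41.3% of Control (cells with Ly6c2). The same split was made in cells gated by UMIs of at least 3 macrophage marker genes, whatever their cluster. There the LOY level was also below Control throughout, from 10.2% (cells with Folr2) to 70.3% of Control (64.9 to 76.2). The latter were cells with Ly6c2, 56 in Control and 349 in LOY.

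The Y-linked transcripts gave a split within the LOY library. Its 129 macrophage-like cells with a UMI of Kdm5d, Uty, Ddx3y or Eif2s3y had 2559 CPM of chains (2433 to 2689), and the 3009 cells without one had 4795 CPM. Control cells with such a UMI had 28094 CPM (1521 cells) and those without 35649 CPM (1793 cells). In both libraries the cells with a Y-linked UMI were deeper, with medians of 3907 and 3029 UMIs in LOY and 6577 and 4954 in Control. Ciita in LOY cells was at 24.7 CPM (13.8 to 40.7) with and 28.1 CPM without a Y-linked UMI. LOY cells with Y transcripts thus stood far below Control cells with Y transcripts in the same class, and were below the LOY cells without them. The cluster mix of these LOY cells differed. The Ltc4s cluster, low in chains, held 46 of the 129 cells with and 679 of the 3009 without a Y-linked UMI. Their chains were at 1191 and 1471 CPM there, and at 2246 and 4780 CPM in the Gpnmb cluster (42 and 1548 cells). The part of the mix in the difference was not tested. The source of the Y transcripts in the LOY library was not tested.

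Of the factors that bind or act with Ciita at the promoter (RFX, CREB, NF-Y and chromatin factors) 10 of 11 were measured in macrophage-like cells, of which 0 were past 1.5-fold lower and 1 higher, against 7.94% and 6.52% of all measured genes, so these counts were near the background. Smarca4, a chromatin remodeller, was highest at 167% of Control and Rfxank, an RFX subunit, next at 128%. The lowest were Kat2b, an acetyltransferase (64.1%), and Nfya, an NF-Y subunit (68.7%). At 26.1 and 16.7 CPM Kat2b was past 1.5-fold lower as a plain ratio, but not with the 10 CPM added for the counts. Their median log2 ratio was -0.13.

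Of the genes of interferon-gamma signalling and of the lineage factors that act on Ciita, 11 of 13 were measured, with 3 past 1.5-fold lower and 0 higher (7.94% and 6.52% of all measured genes) and a median log2 ratio of -0.14. Jak1, a kinase of the interferon receptors, was at 178 and 187 CPM (106%). Irf4 was lowest, at 11.6 and 2.10 CPM (18.1%), and then Socs1, which is induced by interferon and restrains its signal, at 19.6 and 5.22 CPM (26.6%). Irf4 and Socs1 reached 10 CPM, the level of measured genes, only in the Control library. The filter thus favoured a lower ratio for them, and the count of 3 rests in part on it. The third past 1.5-fold was Irf1, an interferon-induced factor that acts on Ciita, at 108 and 64.8 CPM (60.0%), a gene named outside the naming rule, after its value was seen. Ifng had 0 UMIs in macrophage-like cells of both libraries.

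Of the processing and trafficking genes 10 were measured, with 4 past 1.5-fold higher and 0 lower (6.52% and 7.94% of all measured genes) and a median log2 ratio of 0.25. Ctsd, a lysosomal protease, was at 607 and 3099 CPM (511%) and Ctsb at 2366 and 4474 CPM (189%). Lgmn, which cuts the invariant chain, was lowest at 74.3%, followed by March8, a ubiquitin ligase, at 90.7%. Ctss, the main protease of the invariant chain in these cells, was at 2007 and 2242 CPM (also named after its value was seen). Of co-stimulatory and checkpoint genes 7 of 9 were measured, with 2 lower and 0 higher (7.94% and 6.52% of all measured genes) and a median of -0.18. Cd83, which holds class II and Cd86 at the surface, was at 385 and 145 CPM (37.6%) and Cd86 at 174 and 89.8 CPM (51.7%), while Plxna1 and Icosl were highest at 137% and 130%.

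Genes with a like pattern were sought over 33 units, each a class or cluster in 1 library with at least 50 cells, which share library and depth. Among 5975 genes with at least 50 CPM in some unit, Cd83 (Pearson r = 0.83), Bmyc (0.83), Cd86 (0.80), Herpud1 (0.76) and Lpcat1 (0.74) followed the mean log2 level of the chains and Cd74 most closely. The next were Plekho1 (0.74), Pafah1b3 (0.72), Swap70 (0.72), Fnbp1l (0.71) and Gdi2 (0.70). For Ciita the closest were Pafah1b3 (0.81), Rnase6 (0.80), Pkib (0.78), Kmo (0.77) and Vhl (0.76), of which 4 were highest in cDC-like cells and Kmo in the Cd209a cluster. The most opposite to the chains and Cd74 were Gramd1a (-0.76), Hcst (-0.75), Pde2a (-0.71), Lrrfip1 (-0.70) and Ppp1cc (-0.70). Among the set itself Ciita followed H2-Ab1 with r = 0.91 and H2-DMa with 0.90, but H2-DMb2 with 0.62, H2-Ob with 0.57 and H2-Oa with 0.51, and H2-Oa followed H2-DMb2 with 0.94.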

How the data were processed

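The deposited values were raw UMI counts per gene and barcode, made with Cell Ranger 5.0.0 on mm10 per the submitters' processing notes and not normalized by the authors. The annotation release and the barcode filter are not given in the sources used here. Barcodes had to hold 500 UMIs and 200 genes, with a mitochondrial share of 10% or less. Scrublet doublets were removed, 84 (1.15%) by its own threshold in Control and, as that threshold found too few in LOY, the 240 highest scores (4.38%) there. The libraries were clustered together in scanpy 1.11.5 (2000 variable genes, 30 components, 15 neighbours, Leiden resolution 1) without class II, Y-linked, mitochondrial, ribosomal-protein, haemoglobin and antigen-receptor genes, and the 22 clusters were named from marker lists. A cluster was named for the type with most of its markers in at least 25% of cells, and stayed unnamed if markers of another type led it. The named genes are the 10 members and, from each pathway list, the 2 genes at either end by macrophage-like ratio, plus the most alike genes; 1 gene of these lists is not reported here. Members and lists were chosen with earlier results of these data known. UMIs were summed per class and divided by the class total (CPM). Log2 ratios had 10 CPM added. Intervals are exact Poisson, conditional binomial (ratios) or Clopper-Pearson (shares) at 95%. The ratio functions were tested on simulated data.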

Additional observations from a re-analysis of the deposited data

Results flagged for a closer look

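Some genes stood on opposite sides of 1 in macrophage-like cells and in another class, with both counting intervals clear of 1. These differences between classes were not tested, since each group is 1 library. The intervals count UMIs and hold no spread between cells, so ratios close to 1 in small clusters are weakly placed on either side. Cd74 was lower in LOY macrophage-like cells (26.7% of Control) but higher in B cell-like (124%), cDC-like cells (115%) and the Cd209a cluster (104%). Its log2 ratio there was above that of macrophage-like cells by 2.21, 2.11 and 1.96. H2-DMb1, at 31.2% in macrophage-like cells, was higher in LOY cDC-like cells (122%) and the Cd209a cluster (157%), with log2 ratios 1.92 and 2.28 above. Ciita, at 24.1% in macrophage-like cells, was at 149% in the Cd209a cluster, 2.28 above on the log2 scale.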

How the results depend on the processing

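The summed chains of macrophage-like cells were lower in LOY cells under all 22 alternatives, from -3.08 to -1.42 against -2.75 (log2). Depth and scale gave -3.08 (cells of 2000 to 6000 UMIs), -2.52 (at least 1000 UMIs), -2.57 (at most 5% mitochondrial UMIs), -2.59 (thinned sums), -2.73 (no mitochondrial or ribosomal-protein genes in the total), -2.82 (no class II genes in it) and -2.74 (50 CPM added). Clustering gave -2.89 with the class II genes, -2.42 at resolution 0.5, -2.72 at resolution 2, -2.79 for each library alone, -2.95 with doublets kept and -2.40 for a gate on marker UMIs. Alternatives chosen after seeing the data gave -2.37 (9 or more markers), -2.90 (no cluster over 90% from 1 library), -1.58 (equal cluster weights), -1.42 (Control shares), -1.97 (LOY shares) and -2.77 (NK cell-like level taken off). The share with a chain UMI differed by -39.0 points unthinned, -51.6 at 500 and -44.8 at 2000 UMIs. It differed by -45.2 (at least 1000 UMIs), -45.8 (5% mitochondrial), -52.8 (2000 to 6000 UMIs), -51.4 (class II genes in clustering), -44.3 (resolution 0.5), -42.5 (gate) and -42.1 points (9 or more markers). The cause of these shifts was not tested. The lower class II genes numbered 7 or 8 under all 18 alternatives, H2-Ob being the one that was lost. Of other classes 3 of 6 were past 1.5-fold lower, 1 of 4 with each library alone and 2 of 5 with doublets kept, where the NK cell-like log2 ratio was -0.22 in place of -2.27. The gate names no other class, and 2000 to 6000 UMIs left none with 50 cells in each library. No paired analysis was possible because each group is 1 library. Low counts limit H2-DMb2, H2-Oa and H2-Ob in macrophage-like cells. Intervals hold no spread between mice, and those of UMI levels and ratios hold none between cells.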
